A study of Homo sapiens with 4 samples.

Results

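The integrated stress response and the aminoacyl-tRNA synthetases were followed through 40 genes, chosen by name, out of 61806 genes counted in U251-MG cells. The 40 genes were 13 stress transcription factors and effectors, 8 enzymes of amino acid synthesis, 4 amino acid transporter subunits and 15 cytosolic tRNA synthetases. All 40 symbols were found, and all 40 passed the filter on low counts. U251-MG is an established human glioblastoma line, labelled wild type and grown as glioma cells in DMEM with fetal bovine serum. The COL8A1 cells (2 libraries) had been infected with a lentiviral vector (pCDH-CMV-MCS-EF1-puro) that carried the cDNA of COL8A1, a collagen VIII chain, behind a viral CMV promoter. The NC cells (2 libraries) had been infected with a negative control vector of the same kind. No label states whether libraries within a group derive from separate cultures, or whether the infected cells were kept as a pool or a clone. Each p-value therefore reflects scatter among 4 libraries, part of which could be technical.

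The integrated stress response is the pathway by which cells answer a shortage of amino acids, misfolded protein in the endoplasmic reticulum, viral RNA or a lack of heme. Kinases phosphorylate the translation factor eIF2, general protein synthesis slows, and the mRNA of the transcription factor ATF4 is translated more. ATF4, paired with a C/EBP protein, then raises the transcription of genes for amino acid synthesis, amino acid uptake and the charging of tRNAs, and, under lasting stress, of DDIT3 (CHOP) and its targets. Glioma cells are known to use this programme when nutrients or oxygen run short. Because ATF4 is controlled largely by translation, the mRNA level of ATF4 is a poor guide to its protein.

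The libraries held 27923796 to 33576228 counted reads. COL8A1 itself was at 135 and 81.3 CPM (counts per 1000000 reads, with library sizes scaled by TMM) in COL8A1 replicates 1 and 2, against 2.51 and 2.43 CPM in NC replicates 1 and 2, the direction of the labels (edgeR adjusted p = 0.0681, DESeq2 adjusted p = 6.25e-72). Of 11 astrocyte and glioma markers, VIM, SOX2, NES and CD44 were each at 391.6 CPM or more in every library, while AQP4 and OLIG2 were at 0 in all 4 libraries and GFAP was at 2.05 and 1.84 CPM in COL8A1 cells and 0.68 and 0.56 CPM in NC cells. SLC1A3, FABP7 and SOX9 were higher in both COL8A1 libraries than in both NC libraries, as were GFAP and NES. SLC1A3 was at 52.8 and 59.2 CPM in COL8A1 cells and 27.3 and 27.2 CPM in NC cells, FABP7 at 49.97 and 48.4 CPM in COL8A1 cells and 32.1 and 36.8 CPM in NC cells and SOX9 at 191 and 184 CPM in COL8A1 cells and 162 and 154 CPM in NC cells, each short of the edgeR threshold. Neuron markers summed to at most 0.252 CPM in COL8A1 cells and 0.293 CPM in NC cells. Epithelial markers, through KRT5 and KRT14, summed to 139.5 to 174.5 CPM in COL8A1 cells and 149.1 to 149.7 CPM in NC cells, and endothelial markers, mostly CDH5, to 62.2 to 79.7 CPM in COL8A1 cells and 64.7 to 65.6 CPM in NC cells. The part of these marker levels in the results was not tested.

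The question put to these genes was whether cells with the COL8A1 vector differ from control cells in the stress programme. None of the 40 passed the threshold (edgeR quasi-likelihood test, Benjamini-Hochberg adjusted p under 0.05 over all 17030 genes tested; DESeq2 and limma-voom also called 0 of the 40), against 0.0117% of all genes tested in edgeR and 1.06% in DESeq2. The edgeR adjusted p-values of the 40 genes began at 0.662. At an unadjusted p under 0.05 stood 8 of the 40, against 6.07% of all genes tested. Of these, 7 were lower in COL8A1 cells, against 2.63% of all genes tested, and 1 was higher, against 3.44%. The 7 were ATF3, SESN2, PSAT1, GARS1, MARS1, IARS1 and TARS1, and the 1 was GDF15. The count of 8 became 2 without NC replicate 1, 2 without NC replicate 2, 6 without COL8A1 replicate 1 and 12 without COL8A1 replicate 2. In 20 of the 40 genes both COL8A1 libraries lay below both NC libraries, against 18.6% of all genes tested. In 3 genes both lay above, against 18.9%. The log2 fold change was negative for 31 of 40 genes, against 49.8% of all genes tested. The median over the 40 was -0.12, beside 0.0011 over all genes tested. Among the 10096 genes at or above the lowest mean level of the 40 (9.45 CPM), 51.5% had a negative value, 20.4% had both COL8A1 libraries below both NC libraries and 19.1% had both above. At this level 0.0198% were called, and 6.98% had an unadjusted p under 0.05, with 3.21% lower and 3.77% higher.

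The 4 roles differed in how evenly their genes were placed. All 15 tRNA synthetases had a negative log2 fold change, with a median of -0.15 and a range from -0.36 to -0.0045. The enzymes of amino acid synthesis had 5 of 8 negative values, with a median of -0.12. The transporters had 3 of 4, with a median of -0.10. The stress transcription factors and effectors had 8 of 13, with a median of -0.11 and a range from -1.08 to 0.44, so that this role held both the lowest and the highest value of the 40. Without NC replicate 2 the median of this role was 0.0095. Bulk libraries cannot tell a lower level in every cell from a smaller share of cells with a high level. Whether the roles differ from each other was not tested.

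**Figure D1:**
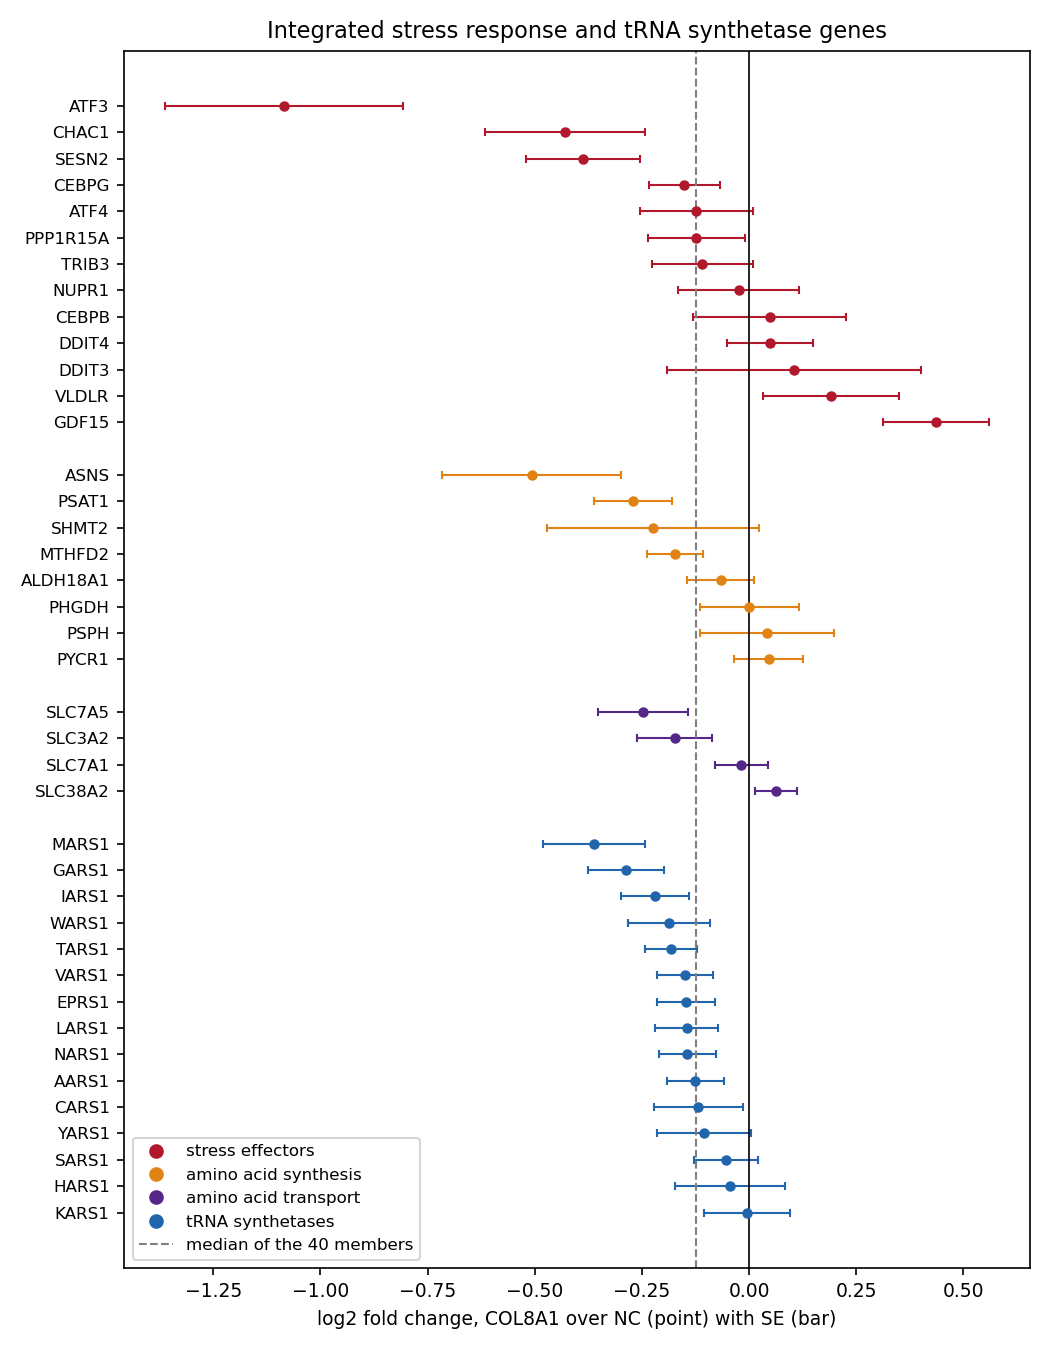
Log2 fold change, COL8A1 over NC, of each of the 40 genes (points) with its SE (bars), grouped by role, with the median of the 40 as a dashed line. The 15 tRNA synthetases lie between -0.36 and -0.0045, while the stress effectors run from -1.08 for ATF3 to 0.44 for GDF15.

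The single libraries show how far each role rests on a given library. For each gene the deviation of log2(CPM + 0.5) from its own mean over the 4 libraries was taken. The median deviation of the 15 synthetases was -0.13 and -0.029 in COL8A1 replicates 1 and 2, against 0.077 and 0.084 in NC replicates 1 and 2. Both COL8A1 libraries thus stood below both NC libraries, and replicate 1 stood further below than replicate 2. COL8A1 replicate 1 was the lowest of the 4 libraries for 12 of the 15 synthetases and COL8A1 replicate 2 for the other 3. For the enzymes of amino acid synthesis the median deviation was -0.12 and -0.0035 in COL8A1 replicates 1 and 2, against 0.10 and 0.10 in NC replicates 1 and 2. For the stress effectors it was 0.030 and -0.13 in COL8A1 replicates 1 and 2, against -0.059 and 0.16 in NC replicates 1 and 2. In this role the groups overlapped, with NC replicate 2 the highest library for 8 of 13 genes. The transporter medians were -0.032 and 0.012 in COL8A1 replicates 1 and 2, against 0.065 and 0.0071 in NC replicates 1 and 2. These also overlapped. The library with the lowest synthetase levels, COL8A1 replicate 1, also had the higher COL8A1 level of the pair; with 2 libraries a relation between them was not tested.

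**Figure D2:**
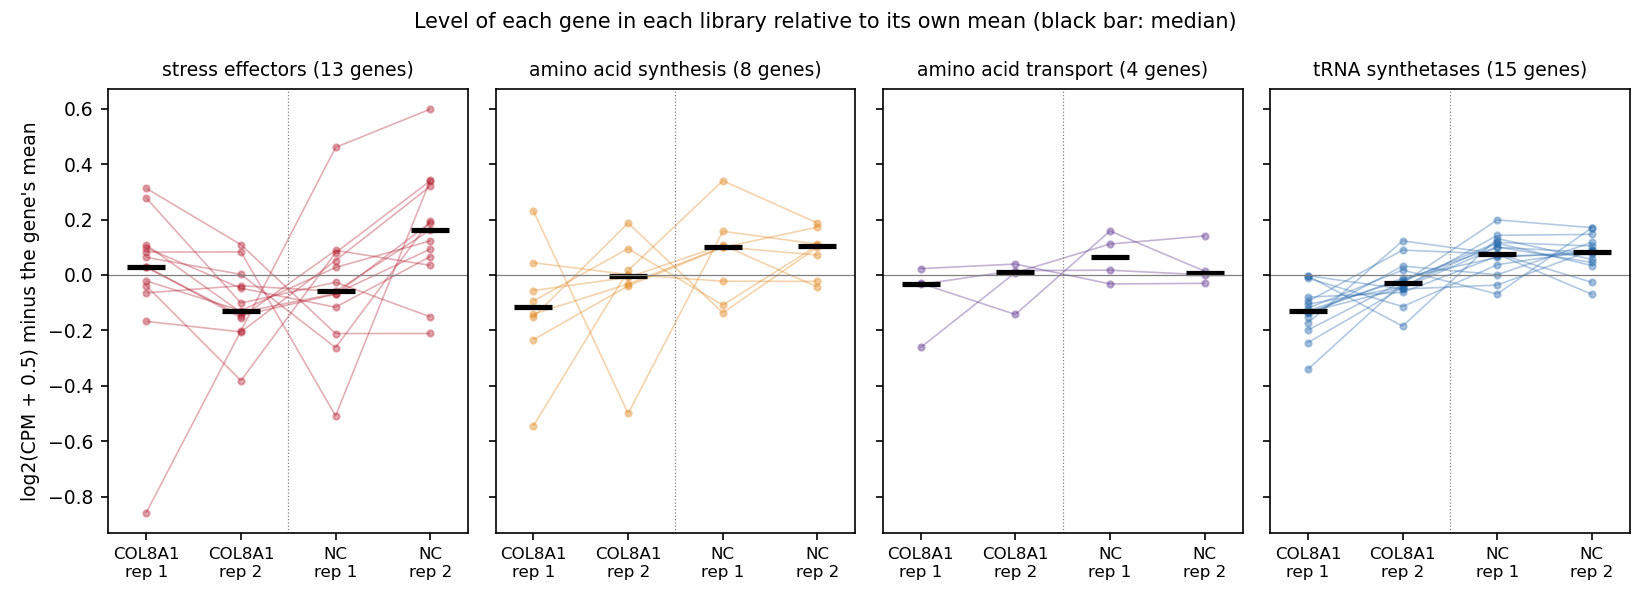
Deviation of log2(CPM + 0.5) of each gene from its own mean in the 4 libraries, a panel for each role; thin lines join the values of a gene and black bars are medians. The synthetase medians are -0.13 and -0.029 in COL8A1 replicates 1 and 2, against 0.077 and 0.084 in NC replicates 1 and 2. The stress effector medians of the groups overlap, as do those of the transporters.

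The promoters of the 40 genes were searched for the C/EBP-ATF response element (CARE), which ATF4 binds with a C/EBP partner. Many of the 40 are textbook targets of ATF4, so the choice of the genes is not independent of this element. The letters TGATGNAA were searched on both strands in RefSeq promoter windows (250 bases before to 50 after each annotated start, GRCh38.p14). Windows were found for 33 of the 40 genes. NUPR1, PSPH, SHMT2, PYCR1, YARS1, LARS1 and VARS1 had none. A match stood in 13 of the 33, or 39.4%, against 4.46% of all 27305 genes with a window and 3.62% of all 35116 windows. The cyclic AMP response element TGACGTCA, searched the same way, stood in 1 of the 33 genes, PPP1R15A, against 2.25% of all genes. The matches of the stress factors and of ASNS are shown first and those of the synthetases after them, each as 30 bases read 5′ to 3′ on the strand of the gene, with the match in capitals (TTNCATCA is the same element on the other strand).
ATF3, chr1:212565205-212565234, plus strand: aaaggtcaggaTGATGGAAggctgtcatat
CEBPG, chr19:33374060-33374089, plus strand: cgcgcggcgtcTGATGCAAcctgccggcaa
CHAC1, chr15:40953251-40953280, plus strand: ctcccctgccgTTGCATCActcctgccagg
ASNS, chr7:97872458-97872487, minus strand: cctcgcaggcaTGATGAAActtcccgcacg
GARS1, chr7:30594834-30594863, plus strand: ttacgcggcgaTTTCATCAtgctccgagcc
MARS1, chr12:57488053-57488082, plus strand: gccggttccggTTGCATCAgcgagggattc
IARS1, chr9:92293692-92293721, minus strand: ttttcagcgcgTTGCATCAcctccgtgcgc
TARS1, chr5:33440956-33440985, plus strand: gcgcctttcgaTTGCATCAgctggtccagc
AARS1, chr16:70289675-70289704, minus strand: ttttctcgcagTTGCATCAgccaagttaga
NARS1, chr18:57621804-57621833, minus strand: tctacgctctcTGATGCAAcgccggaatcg
CARS1, chr11:3057407-3057436, minus strand: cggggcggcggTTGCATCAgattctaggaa
The 8-letter core TTGCATCA stood, in that orientation, in CHAC1, MARS1, IARS1, TARS1, AARS1 and CARS1. The same core read on the other strand, TGATGCAA, stood in CEBPG and NARS1. The letters were TGATGAAA in ASNS, TTTCATCA in GARS1 and TGATGGAA in ATF3. The other 2 genes with a match were the transporters SLC3A2 and SLC7A1. A match is a description of letters in these windows and not a measured binding site, and 8 of the 11 windows shown lie within exons annotated in GENCODE release 29.

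Among the transcription factors of the pathway, ATF3 differed most between the groups. ATF3 (ENSG00000162772; chromosome 1, 212565334 to 212620777, plus strand, GENCODE release 29), a stress-induced repressor and activator of the ATF and CREB family, was at 4.59 and 7.53 CPM in COL8A1 replicates 1 and 2, against 12.2 and 13.5 CPM in NC replicates 1 and 2. The groups did not overlap, and both COL8A1 values lay below 8 CPM, though they stood 1.64-fold apart from each other. ATF3 averaged 6.06 ± 2.07 CPM in COL8A1 cells and 12.8 ± 0.90 CPM in NC cells (SD, n = 2 each), with a log2 fold change of -1.08 (SE 0.28, edgeR adjusted p = 0.662, DESeq2 adjusted p = 0.0752). ATF3 moved to -0.77 without COL8A1 replicate 1 and to -1.485 without COL8A1 replicate 2. ATF4 (ENSG00000128272; chromosome 22, 39519695 to 39522685, plus strand), the central factor, was at 57.4 and 50.8 CPM in COL8A1 replicates 1 and 2, against 53.6 and 64.2 CPM in NC replicates 1 and 2. The ranges overlapped, and ATF4 had a log2 fold change of -0.12 (SE 0.13, edgeR adjusted p = 0.889); without NC replicate 2 the log2 fold change was 0.0095. DDIT3, which encodes the pro-apoptotic factor CHOP, was at 33.1 and 33.1 CPM in COL8A1 replicates 1 and 2, against 21.8 and 39.7 CPM in NC replicates 1 and 2. The COL8A1 values were nearly equal and lay between the NC values, which stood 1.82-fold apart, the widest gap within a group among the stress effectors. DDIT3 had a log2 fold change of 0.11 (SE 0.30, edgeR adjusted p = 0.969). It shares exonic bases with MARS1 and MBD6 on the opposite strand, and the strand mode of the counting was not given. The C/EBP partners of ATF4, CEBPB and CEBPG, stood at log2 fold changes of 0.049 and -0.15 (SE 0.18 and 0.083), and of the pair CEBPG had both COL8A1 libraries below both NC libraries.

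The effectors downstream were placed on both sides of 0. CHAC1, an enzyme that degrades glutathione, was at 14.3 and 11.2 CPM in COL8A1 replicates 1 and 2, against 15.6 and 18.7 CPM in NC replicates 1 and 2. SESN2, a leucine sensor that restrains mTORC1, was at 21.3 and 20.7 CPM in COL8A1 replicates 1 and 2, against 24.8 and 30.03 CPM in NC replicates 1 and 2. In both genes the groups did not overlap, with a log2 fold change of -0.43 (SE 0.19, edgeR adjusted p = 0.826) for CHAC1 and a log2 fold change of -0.39 (SE 0.13, edgeR adjusted p = 0.799) for SESN2. CHAC1 moved to -0.27 without COL8A1 replicate 2, and SESN2 to -0.25 without NC replicate 2. TRIB3, a pseudokinase that binds AKT and dampens ATF4 activity, was at 28.9 and 29.4 CPM in COL8A1 replicates 1 and 2, against 28.96 and 33.9 CPM in NC replicates 1 and 2. The ranges overlapped, with NC replicate 2 above the other 3 libraries, and TRIB3 had a log2 fold change of -0.11 (SE 0.12, edgeR adjusted p = 0.892). GDF15, a secreted stress hormone of the TGF-beta superfamily, ran the other way and was at 26.1 and 22.6 CPM in COL8A1 replicates 1 and 2, against 18.03 and 18.04 CPM in NC replicates 1 and 2. The groups did not overlap, and GDF15 averaged 24.4 ± 2.47 CPM in COL8A1 cells and 18.04 ± 0.0037 CPM in NC cells (SD, n = 2 each), with a log2 fold change of 0.44 (SE 0.12, edgeR adjusted p = 0.700). The other 4 effectors were DDIT4, an mTORC1 inhibitor (0.049, SE 0.10), PPP1R15A, which directs a phosphatase to eIF2 (-0.12, SE 0.11), the chromatin protein NUPR1 (-0.024, SE 0.14) and the lipoprotein receptor VLDLR (0.19, SE 0.16), each value a log2 fold change. Of these PPP1R15A was lower in both COL8A1 libraries than in both NC libraries. The gap was narrow, from 27.97 CPM in COL8A1 replicate 1 to 28.07 CPM in NC replicate 2. The groups of DDIT4, NUPR1 and VLDLR overlapped.

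**Figure D3:**
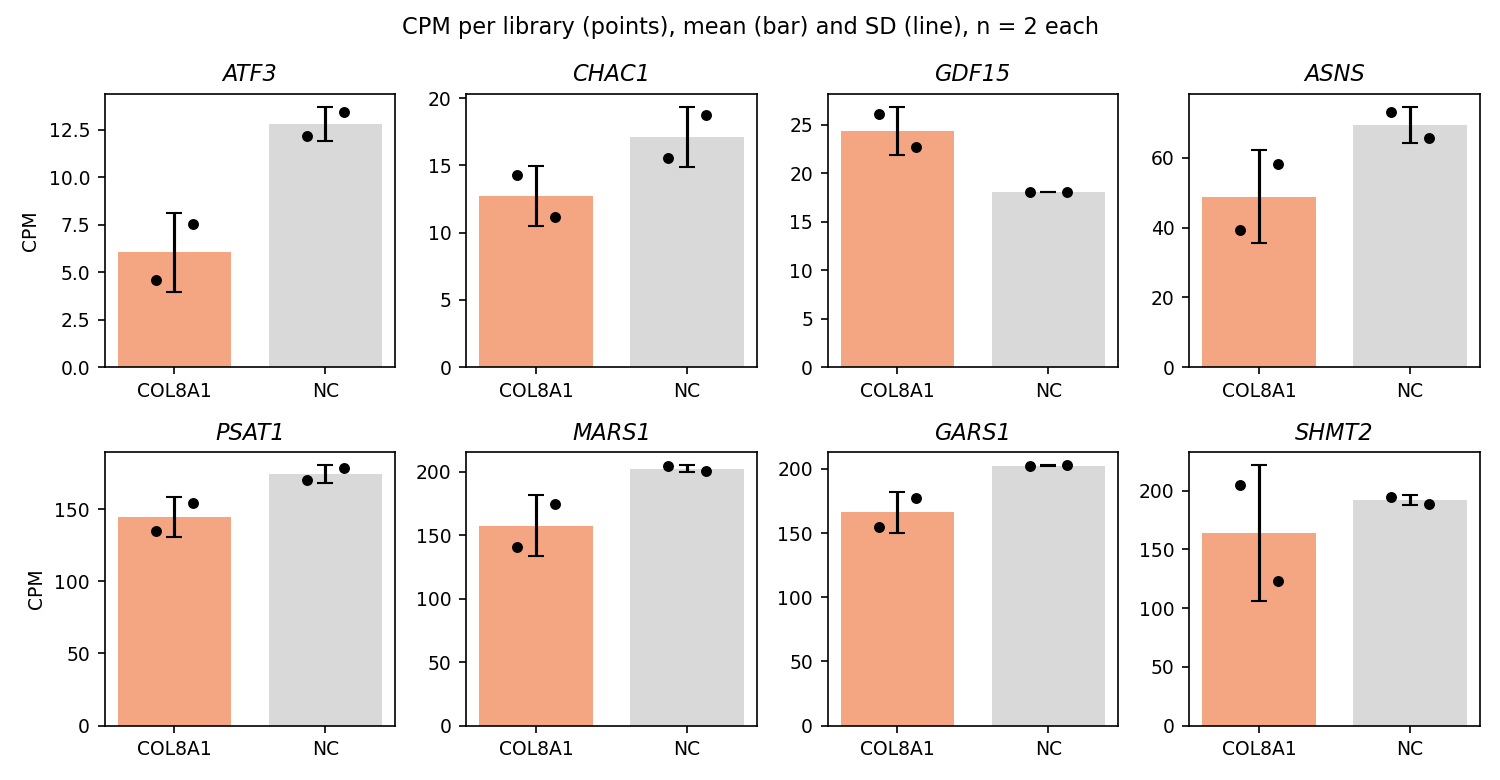
CPM of 8 genes in each library (points), with the group mean (bar from 0) and SD (line, n = 2 each), COL8A1 at the left and NC at the right. ATF3, CHAC1, ASNS, PSAT1, MARS1 and GARS1 have both COL8A1 points below both NC points, GDF15 has both above, and the 2 COL8A1 points of SHMT2 stand apart at 205 and 123 CPM.

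Among the enzymes of amino acid synthesis, ASNS and PSAT1 had the lowest log2 fold changes. ASNS (ENSG00000070669; chromosome 7, 97852118 to 97872542, minus strand), which makes asparagine and is among the best known ATF4 targets, was at 39.4 and 58.4 CPM in COL8A1 replicates 1 and 2, against 73.2 and 65.8 CPM in NC replicates 1 and 2. Both COL8A1 values lay below both NC values, but they stood 1.48-fold apart, and ASNS had a log2 fold change of -0.51 (SE 0.21, edgeR adjusted p = 0.817). Its log2 fold change was -0.25 without COL8A1 replicate 1 and -0.82 without COL8A1 replicate 2. An uncharacterised gene on the same strand (ENSG00000284707) shares 1985 exonic bases with ASNS and had 215 and 89 counts in the COL8A1 libraries and 69 and 130 in the NC libraries. The shared bases are 44.6% of the exonic bases of ASNS, and how reads in them were counted was not given. Added together, the counts of both genes came to 46.2 and 61.6 CPM in the COL8A1 libraries. In the NC libraries they came to 75.4 and 69.6 CPM, a log2 ratio of means of -0.43. Reads left out of both counts would be missing from this sum.

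Serine is made in a short chain of steps, and its carbon then feeds the folate cycle in mitochondria. PHGDH, the enzyme of the first step, was at 93.1 and 106 CPM in COL8A1 replicates 1 and 2, against 92.1 and 107 CPM in NC replicates 1 and 2. The values of the groups interleaved, and PHGDH had a log2 fold change of 0.00072 (SE 0.12, edgeR adjusted p = 0.9998). PSAT1 (ENSG00000135069; chromosome 9, 78297143 to 78330093, plus strand), the aminotransferase of the second step, was at 135 and 154 CPM in COL8A1 replicates 1 and 2, against 169.7 and 179 CPM in NC replicates 1 and 2. The groups did not overlap, and PSAT1 averaged 144 ± 13.8 CPM in COL8A1 cells and 174 ± 6.27 CPM in NC cells (SD, n = 2 each), with a log2 fold change of -0.27 (SE 0.092, edgeR adjusted p = 0.795). PSAT1 moved to -0.18 without COL8A1 replicate 1. PSPH, the phosphatase that releases serine, had a log2 fold change of 0.042 (SE 0.16) with overlapping groups. SHMT2, which moves a carbon unit from serine to folate in mitochondria, was at 205 and 123 CPM in COL8A1 replicates 1 and 2, against 195 and 189 CPM in NC replicates 1 and 2. COL8A1 replicate 1 was the highest of the 4 libraries and COL8A1 replicate 2 the lowest, a 1.66-fold gap within the group, and SHMT2 had a log2 fold change of -0.22 (SE 0.25, edgeR adjusted p = 0.893). Without COL8A1 replicate 1 its log2 fold change was -0.64, and without COL8A1 replicate 2 it was 0.092. MTHFD2, the next enzyme of the mitochondrial folate cycle, was at 272 and 293 CPM in COL8A1 replicates 1 and 2, against 321 and 315 CPM in NC replicates 1 and 2. The groups did not overlap, and MTHFD2 had a log2 fold change of -0.17 (SE 0.066, edgeR adjusted p = 0.816). The enzymes of proline synthesis, ALDH18A1 and PYCR1, stood at log2 fold changes of -0.067 and 0.046 (SE 0.079 and 0.081); PYCR1 was higher in both COL8A1 libraries than in both NC libraries, by less than 3 CPM in every pair. Summed over the 8 enzymes, the level was 1042 and 1055 CPM in COL8A1 replicates 1 and 2, against 1168 and 1165 CPM in NC replicates 1 and 2, lower by 10.1% in the COL8A1 mean. The close COL8A1 sums hide differences that offset each other. SHMT2 and, slightly, PYCR1 were higher in COL8A1 replicate 1, while the other enzymes were higher in COL8A1 replicate 2.

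Of the transporters, SLC7A5 and SLC3A2, which form a single carrier, had the lowest log2 fold changes. SLC7A5 (LAT1), the light chain that exchanges glutamine for leucine and other large amino acids, was at 199.96 and 241 CPM in COL8A1 replicates 1 and 2, against 259 and 264 CPM in NC replicates 1 and 2. SLC3A2 (CD98), the heavy chain that carries SLC7A5 to the membrane, was at 126 and 117 CPM in COL8A1 replicates 1 and 2, against 144 and 130.0 CPM in NC replicates 1 and 2. Both COL8A1 values lay below both NC values in each gene, with a log2 fold change of -0.25 (SE 0.11, edgeR adjusted p = 0.825) for SLC7A5 and a log2 fold change of -0.17 (SE 0.088, edgeR adjusted p = 0.835) for SLC3A2. SLC7A5 moved to -0.12 without COL8A1 replicate 1 and -0.39 without COL8A1 replicate 2, and SLC3A2 to -0.10 without NC replicate 1. SLC7A1 (CAT1), which takes up arginine and lysine, had a log2 fold change of -0.018 (SE 0.061) with overlapping groups. SLC38A2 (SNAT2), a sodium-coupled carrier of small neutral amino acids, was at 616 and 623 CPM in the COL8A1 libraries and 593 and 594 CPM in the NC libraries. It was higher in both COL8A1 libraries, but only by 0.062 (SE 0.049) on the log2 scale.

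The cytosolic tRNA synthetases, each of which joins an amino acid to its tRNAs, gave the most even picture. Their summed level was 2677 and 2855 CPM in COL8A1 replicates 1 and 2, against 3091 and 3097 CPM in NC replicates 1 and 2, with means of 2766 ± 126 CPM in COL8A1 cells and 3094 ± 4.24 CPM in NC cells (SD, n = 2 each). The COL8A1 mean was lower by 10.6%. In 10 of the 15 genes both COL8A1 libraries lay below both NC libraries, against 18.6% of all genes tested, and in 0 did both lie above, against 18.9%. The 4 synthetases with an unadjusted p under 0.05 were MARS1, GARS1, IARS1 and TARS1. MARS1 (ENSG00000166986; chromosome 12, 57475445 to 57517569, plus strand), the methionine enzyme, was at 141 and 174 CPM in COL8A1 replicates 1 and 2, against 204 and 200.5 CPM in NC replicates 1 and 2. GARS1 (ENSG00000106105; chromosome 7, 30594681 to 30634033, plus strand), the glycine enzyme, was at 155 and 178 CPM in COL8A1 replicates 1 and 2, against 202 and 203 CPM in NC replicates 1 and 2. In both the NC values lay within 4 CPM of each other, while COL8A1 replicate 1 was lower than COL8A1 replicate 2. MARS1 had a log2 fold change of -0.36 (SE 0.12, edgeR adjusted p = 0.774), and GARS1 a log2 fold change of -0.29 (SE 0.088, edgeR adjusted p = 0.744). MARS1 moved to -0.21 and GARS1 to -0.19 without COL8A1 replicate 1. IARS1, the isoleucine enzyme, was at 254 and 286 CPM in COL8A1 replicates 1 and 2, against 316 and 313 CPM in NC replicates 1 and 2. TARS1, the threonine enzyme, was at 323 and 343 CPM in COL8A1 replicates 1 and 2, against 380.3 and 376 CPM in NC replicates 1 and 2. The groups did not overlap in either, with a log2 fold change of -0.22 (SE 0.079, edgeR adjusted p = 0.804) for IARS1 and a log2 fold change of -0.18 (SE 0.060, edgeR adjusted p = 0.783) for TARS1. IARS1 moved to -0.14 without COL8A1 replicate 1. WARS1, the tryptophan enzyme, which interferon also induces, was at 89.8 and 79.1 CPM in COL8A1 replicates 1 and 2, against 98.6 and 93.6 CPM in NC replicates 1 and 2. Its groups did not overlap, with COL8A1 replicate 2 the lowest library, and WARS1 had a log2 fold change of -0.19 (SE 0.10, edgeR adjusted p = 0.835). WARS1 moved to -0.10 without COL8A1 replicate 2 and -0.28 without COL8A1 replicate 1.

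The other 5 synthetases whose groups did not overlap had log2 fold changes between -0.15 and -0.12. They were VARS1 (valine), EPRS1 (a fused enzyme for glutamate and proline), LARS1 (leucine), NARS1 (asparagine) and AARS1 (alanine). The 5 with overlapping groups were CARS1 (cysteine, -0.12, SE 0.10), YARS1 (tyrosine, -0.11, SE 0.11), SARS1 (serine, -0.055, SE 0.075), HARS1 (histidine, -0.044, SE 0.13) and KARS1 (lysine, -0.0045, SE 0.10). Leaving out NC replicate 1, NC replicate 2 or COL8A1 replicate 1 left 13 of the 15 with a negative value, with medians of -0.15, -0.14 and -0.12, and leaving out COL8A1 replicate 2 left 15 of 15 with a median of -0.20. MARS1 and DDIT3 lie tail to tail and share 355 exonic bases on opposite strands, and the strand setting of the counting is not given in the sources used here, so reads from the shared stretch cannot be told apart. This stretch is 27.2% of the exonic bases of DDIT3 and 5.1% of those of MARS1. MARS1 held 561% of the counts of DDIT3. DDIT3 also shares 58 exonic bases with MBD6 on the opposite strand, which held 151% of the counts of DDIT3. HARS1 (with HARS2 and with WDR55), KARS1 and YARS1 likewise share exonic bases with genes on the opposite strand. Each of these genes held over 10% of the counts of the synthetase. Gene copies that carry the names of the 40 genes held, summed for each gene, at most 1.18% of the counts of that gene.

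The values were then split by the CARE letters. All 13 genes with a match had a negative log2 fold change, with a median of -0.18 and a range from -1.08 to -0.018. Of the 20 genes with a window and no match, 13 had a negative value, with a median of -0.061. Both COL8A1 libraries lay below both NC libraries in 11 of the 13 with a match and in 7 of the 20 without, against 21.3% of all tested genes with a match and 19.1% of those without. Among the synthetases, 7 had a match (median -0.18) and 5 had a window without one (median -0.055). The other synthetases, LARS1, VARS1 and YARS1, had no window and fell outside this split. Their log2 fold changes were -0.15, -0.15 and -0.11. The 4 synthetases with an unadjusted p under 0.05 were all among the 7. Over the whole table, of 314 genes tested with a match, 50.3% had a negative value and the median was -0.0043, beside 50.2% and -0.00061 over 11051 genes without. This split was made after the values of the 40 genes were known and was not tested. Without COL8A1 replicate 1 the count was 12 of 13, with SLC7A1 at 0.0069, and with any other single library left out it was 13 of 13.

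**Figure D4:**
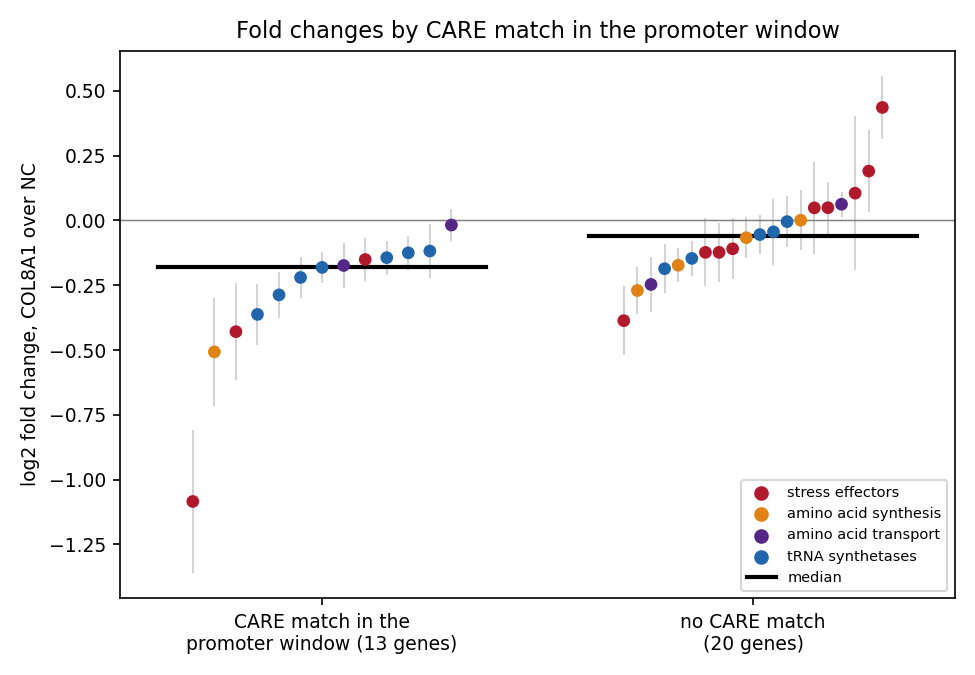
Log2 fold change, COL8A1 over NC, of the 33 genes with a promoter window, split by whether the window holds the CARE letters (13 genes at the left, 20 at the right); points are genes coloured by role, grey lines are SEs and black lines medians. The medians are -0.18 with a match and -0.061 without, and no gene with a match lies above 0.

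Other genes of the pathway, from lists set by pathway role, had medians closer to 0. None passed the edgeR threshold. The 21 genes of eIF2, its kinases and their control had 14 negative values and a median of -0.055. The 4 kinases EIF2AK1 (HRI), EIF2AK2 (PKR), EIF2AK3 (PERK) and EIF2AK4 (GCN2) stood at log2 fold changes of 0.021, -0.21, -0.14 and 0.10, and the groups overlapped in each. In this list OMA1, a mitochondrial protease that relays mitochondrial stress to HRI, had an unadjusted p under 0.05. It was at 10.9 and 11.9 CPM in the COL8A1 libraries and 14.1 and 16.0 CPM in the NC libraries, with a log2 fold change of -0.40 (SE 0.14, edgeR adjusted p = 0.804). Of 35 other ATF4 target genes 32 could be tested. They had 21 negative values and a median of -0.051, with both COL8A1 libraries below both NC libraries in 7 and above in 6, close to the 18.6% and 18.9% of all genes tested. SLC7A11, the cystine transporter, and CBS, an enzyme of cysteine synthesis, had an unadjusted p under 0.05 in opposite directions. SLC7A11 was at 118 and 134 CPM in the COL8A1 libraries and 153 and 151 CPM in the NC libraries, with a log2 fold change of -0.27 (SE 0.088, edgeR adjusted p = 0.774), and moved to -0.18 without COL8A1 replicate 1. CBS was at 6.70 and 6.59 CPM in the COL8A1 libraries and 3.72 and 4.84 CPM in the NC libraries, with a log2 fold change of 0.63 (SE 0.22, edgeR adjusted p = 0.803).

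Negative values were also counted among the remaining synthetase genes, of which none passed the edgeR threshold. The 8 other cytosolic synthetase subunits and cofactors had 6 negative values and a median of -0.088. AIMP1, a scaffold of the multisynthetase complex, was at 44.3 and 55.8 CPM in the COL8A1 libraries and 67.8 and 67.5 CPM in the NC libraries. The groups did not overlap, and AIMP1 had a log2 fold change of -0.43 (SE 0.14, edgeR adjusted p = 0.747). The multisynthetase complex as a whole, grouped after the values were seen, had 9 of 11 subunits with a negative value and a median of -0.15. The 20 genes of mitochondrial tRNA charging, which are encoded in the nucleus and serve the mitochondrial ribosome, had 17 negative values and a median of -0.084, with 0 at an unadjusted edgeR p under 0.05, against 6.07% of all genes tested, and 0 called by edgeR or DESeq2, against 0.0117% and 1.06%. At these shares a count of 0 in 20 genes is not a result about them. Both COL8A1 libraries lay below both NC libraries in 8 of the 20, against 18.6% of all genes tested. In 2 of the 20 both lay above, against 18.9%. The summed level of the 20 genes was 819 and 825 CPM in COL8A1 replicates 1 and 2, against 872 and 859.5 CPM in NC replicates 1 and 2. The difference between cytosolic and mitochondrial synthetases was not tested.

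Per kilobase of exons (union of GENCODE release 29 exons), the 40 genes spanned from ATF3, the lowest, to SLC38A2, the highest. SLC38A2 had a mean of 93.9 CPM per kilobase in COL8A1 cells and 89.9 CPM per kilobase in NC cells. ATF3 had 1.14 and 1.86 CPM per kilobase in the COL8A1 libraries and 3.02 and 3.33 CPM per kilobase in the NC libraries. PSAT1, AARS1, EPRS1 and TARS1 followed SLC38A2, so that 3 of the 5 most abundant genes on this scale were synthetases. The inducible effectors NUPR1, VLDLR, SESN2, CHAC1, TRIB3 and PPP1R15A stood among the 8 lowest, together with ATF3 and the synthetase CARS1. DDIT4 was the highest of the stress effectors, at 58.0 CPM per kilobase in COL8A1 cells and 56.1 CPM per kilobase in NC cells. Differences in which exons are used can shift this order, since the union of exons is longer than any single transcript.

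**Figure D5:**
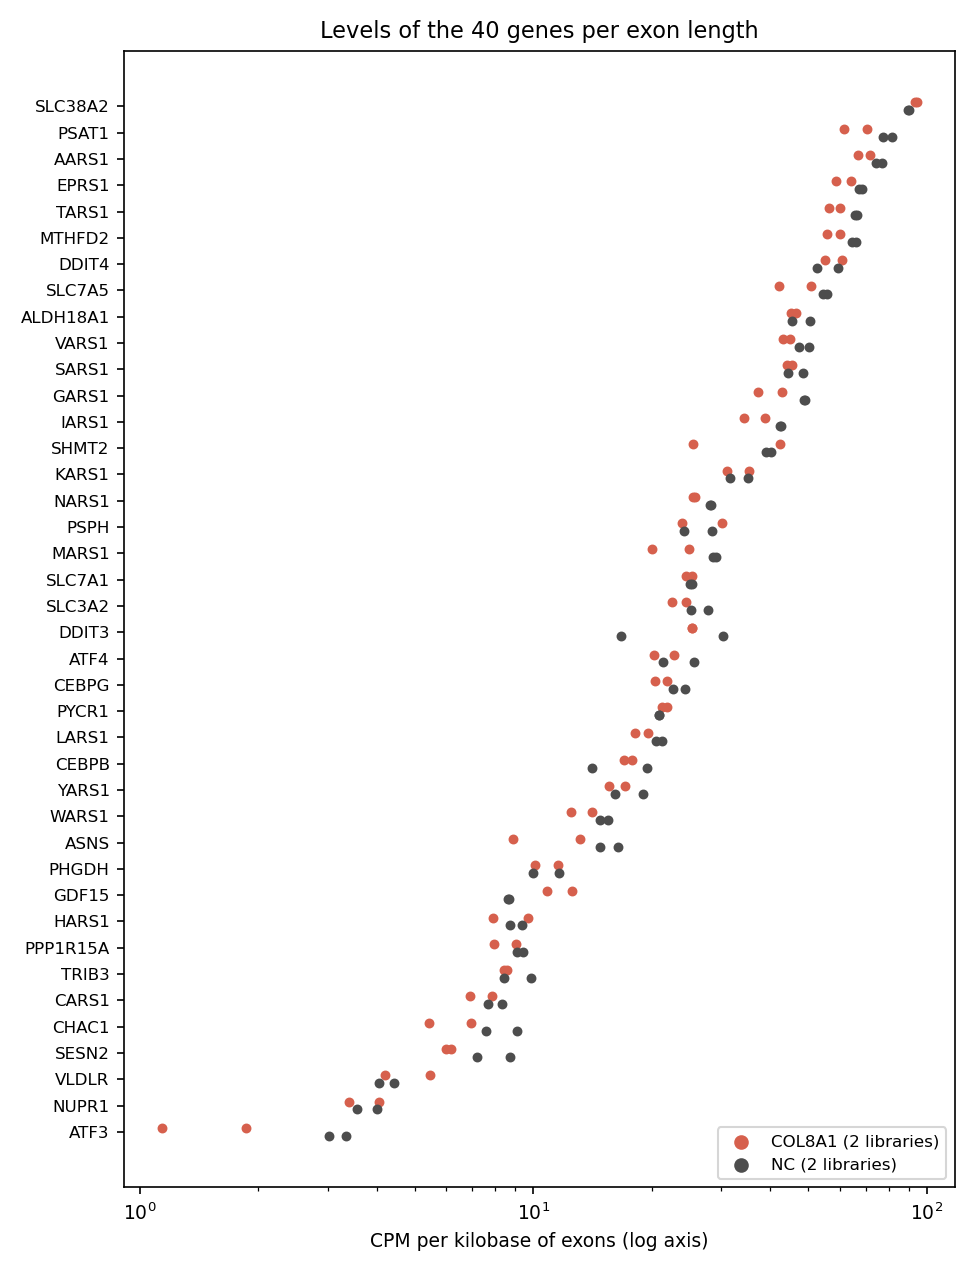
CPM per kilobase of exons (log axis) of the 40 genes in each library, COL8A1 in red above NC in grey, ordered by mean level. SLC38A2 is highest at 93.4 and 94.4 in COL8A1 and 89.8 and 90.0 in NC libraries, and ATF3 lowest at 1.14 and 1.86 in COL8A1 and 3.02 and 3.33 in NC libraries.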

How the data were processed

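The authors deposited a table of raw, whole-number read counts by gene for the 4 libraries. The submitters' processing notes list HISAT2 2.2.1, Trim Galore 0.6.9, featureCounts 0.3 and the hg38 build. Their settings, the strand mode and the annotation release were not given in the sources used here. The table held 61806 genes and 1 line that names no gene, with 0 reads, which was left out. Groups and replicate numbers came from the sample titles.

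Counts were tested in R 4.3.3 with edgeR 4.0.16 (filterByExpr, TMM, quasi-likelihood F-test, group as the only term, 17030 genes, 2 residual degrees of freedom). Each SE is |log2 fold change| over the root of the F statistic. Log2 fold changes carry a prior count of 0.125. Alternatives were other scalings, other filters, DESeq2 1.42.0, limma-voom (limma 3.58.1), robust shrinkage, a replicate block and each library left out. The fits were tested on simulated counts. Replicate libraries differed beyond binomial sampling (unadjusted p under 0.05) in 48.1% of tested genes in COL8A1 and 43.3% in NC, and were kept as separate samples.

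Per-library values are given for 15 genes set by name, for genes with an unadjusted p under 0.05, and for the gene of each role with the widest gap within a group. The genes and lists were chosen with earlier results of these data known. Positions are from GENCODE release 29, promoter windows from RefSeq, GRCh38.p14. The immune marker list is not reported here.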

Additional observations from a re-analysis of the deposited data

How the results depend on the processing

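With 2 libraries a group the test had few degrees of freedom, so genes that miss the threshold are not shown to be equal. edgeR called 2 of all genes tested, both lower in COL8A1 cells, and 17 (11 higher, 6 lower) without a low-count filter, 14 (8 higher, 6 lower) with robust shrinkage, 180 (103 higher, 77 lower) in DESeq2, 1 (lower) with the replicate block and 0 to 3 with a library left out. Of the 40 genes, 0 were called in any of the 13 alternatives. The 8 with an unadjusted edgeR p under 0.05 became 5 with the replicate block and 2 to 12 with a library left out. Replicate numbers mark no stated batch, and deviations of same-numbered libraries had a correlation of -0.036 across tested genes. With a library left out, the median log2 fold change ran from -0.15 to -0.12 over the 40 genes, -0.20 to 0.0095 over the stress effectors, -0.17 to -0.081 over amino acid synthesis, -0.13 to -0.056 over transport and -0.20 to -0.12 over the synthetases. PHGDH turned to -0.0010 with RLE factors, -0.0036 without a low-count filter, -0.0012 in DESeq2 and -0.0036 in limma-voom. Leaving out a library turned the sign of 16 of the 40 log2 fold changes, with ranges of -0.25 to 0.0095 for ATF4, -0.26 to 0.60 for DDIT3, -0.041 to 0.14 for DDIT4, -0.22 to 0.0046 for TRIB3, -0.17 to 0.30 for CEBPB, -0.15 to 0.091 for NUPR1, -0.014 to 0.37 for VLDLR, -0.10 to 0.11 for PHGDH, -0.14 to 0.20 for PSPH, -0.64 to 0.092 for SHMT2, -0.14 to 0.010 for ALDH18A1, -0.046 to 0.0069 for SLC7A1, -0.12 to 0.0067 for SARS1, -0.22 to 0.016 for YARS1, -0.10 to 0.085 for KARS1 and -0.20 to 0.10 for HARS1. The cause was not tested. Other alternatives kept the sign of every one of the 40 apart from PHGDH. Separation of the groups could be counted only under the scalings, where 22 or 23 of the 40 genes did not overlap.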

Other observations

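Some genes of the pathway differed more within a group than between the groups; they were chosen after their values were seen. PPP1R15B, which keeps eIF2 dephosphorylated in unstressed cells, was at 90.6 and 13.6 CPM in COL8A1 replicates 1 and 2, against 98.7 and 163 CPM in NC replicates 1 and 2. COL8A1 replicate 2 stood far below the other 3 libraries. SLC1A5, the glutamine carrier ASCT2, was at 136 and 196 CPM in COL8A1 replicates 1 and 2, against 148 and 228 CPM in NC replicates 1 and 2. Both replicates numbered 1 were lower than both numbered 2. GPT2, which makes alanine in mitochondria, was at 57.3 and 32.1 CPM in COL8A1 replicates 1 and 2, against 38.1 and 34.9 CPM in NC replicates 1 and 2, with COL8A1 replicate 1 above the other 3 libraries. PCK2, the mitochondrial enzyme that makes phosphoenolpyruvate, was at 19.5 and 21.9 CPM in COL8A1 replicates 1 and 2, against 17.3 and 29.5 CPM in NC replicates 1 and 2, with NC replicate 2 the highest library.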
